A study of Rattus norvegicus with 6 samples.

Results

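Antiviral effector genes of the type I interferon response were measured in rat ovaries as a set of 10 genes, Isg15, Mx1, Mx2, Ifit2, Ifit3, Irf7, Oas1a, Rsad2, Usp18 and Slfn4. They were 10 of the 14217 genes named on the array and were read by 13 of the 31042 probe sets tested. A probe set was taken where the platform annotation gave it one of these genes and no other gene. The genes were picked with results of the same comparison already known, so their differences between groups are described here without a test. Overfed rats received 220 kcal and lean rats 155 kcal per metabolic kilogram of a liquid diet by total enteral nutrition, for 28 days. Females of both groups were mated with lean males, and their ovaries were taken at 4.5 days post coitum. Each of the 6 arrays carried the RNA of 1 pool, with 3 overfed and 3 lean pools. The number of animals in a pool, their strain and their age are not given in the labels used here, so the spread between pools may be partly technical.

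Type I interferons bind a receptor made of Ifnar1 and Ifnar2, and the receptor's kinases activate Stat2, which acts with Irf9 in the nucleus. Irf9 directs binding to the interferon-stimulated response element, a DNA motif of repeated GAAA letters, and a large set of target genes is induced. The products act at many steps of infection. Isg15 is a ubiquitin-like protein attached to other proteins, and Usp18 removes it and also dampens the receptor. Mx1 and Mx2 are dynamin-like GTPases that trap viral components. Ifit2 and Ifit3 are tetratricopeptide proteins that bind foreign RNA or partners that do. Oas1a makes oligoadenylates that switch on RNase L, and Rsad2 (viperin) is a radical SAM enzyme that makes a chain-terminating nucleotide. Irf7 is a transcription factor that amplifies interferon production, and Slfn4 belongs to the Schlafen family, whose mouse namesake is induced in myeloid cells.

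The deposited values are logarithms, read here as log2, and each is relative to the probe set's own median over the 6 pools. Levels, and so the order of genes by abundance, cannot be read from them, and the labelled tissue could not be checked against the presence of ovarian markers. Where the groups of a probe set do not overlap, the inner values of both groups stand at equal distances from 0 by this centring. In whole tissue, more cells of a type and more RNA per cell cannot be told apart.

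Of the 10 genes, 9 were higher and 1 was lower in overfed ovaries, and 8 were higher without overlap between the groups. Among all 14217 genes 52.2% were higher, and 6.76% were higher without overlap. Of the 13 probe sets, 12 were higher, 9 of them without overlap, and 1 was lower without overlap. Among all probe sets 54.6% were higher, 7.35% were higher without overlap and 5.33% lower without overlap. Since the genes were picked on this comparison, nothing is read from these counts. The median of the 10 differences was 0.52, against 0.01 over all genes. The mean of the 10 genes was 0.30, 0.07 and 0.51 in overfed pools 1 to 3, against -0.33, -0.07 and -0.26 in lean pools 1 to 3. This made 0.29 ± 0.22 in overfed pools and -0.22 ± 0.14 in lean pools (SD, n = 3 each), a difference of 0.51 on the log2 scale. Over the whole array, limma called 0 of 31042 probe sets at an adjusted p under 0.05, which is 0%, and 2070 (6.67%) had an unadjusted p under 0.05, 3.31% higher and 3.36% lower in overfed pools.

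**Figure D1:**
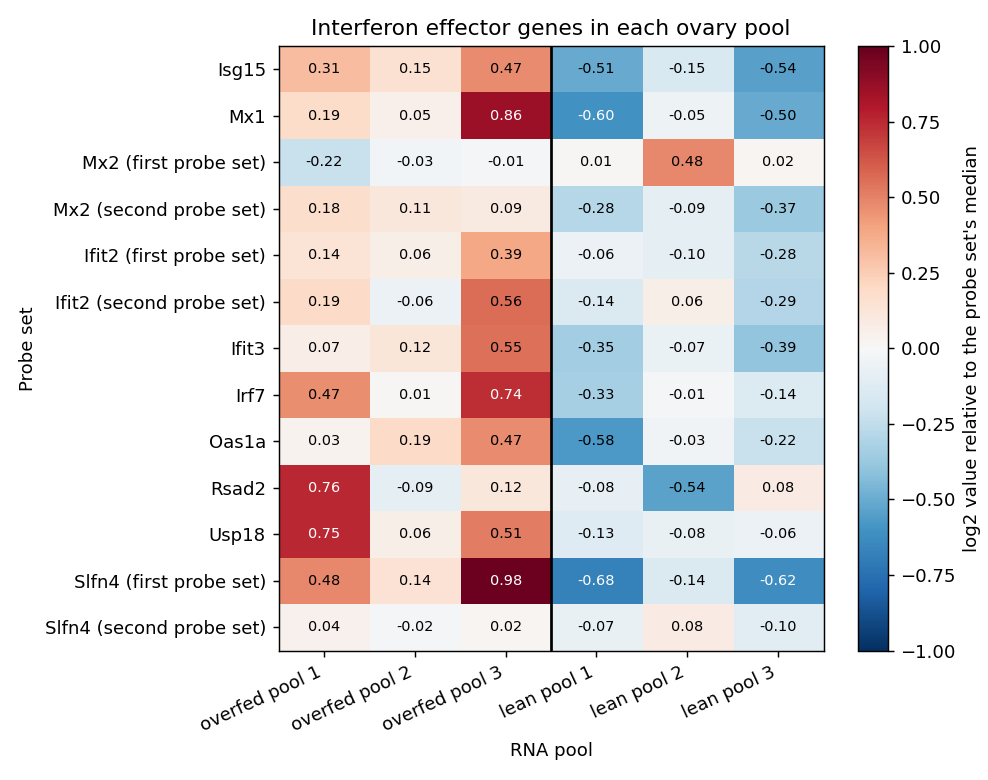
Value of each of the 13 probe sets (rows) in each pool (columns, overfed left of lean), in log2 units relative to the probe set's median, with red for higher and blue for lower values. The first probe set of a gene with 2 is the one that represents it. Overfed pool 3 holds the highest values, up to 0.98 for Slfn4, and lean pools 1 and 3 mostly the lowest, down to -0.68 for Slfn4.

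Slfn4 had the largest difference among the 10 genes. Its representative probe set, 1387134_at, read 0.48, 0.14 and 0.98 in overfed pools 1 to 3, against -0.68, -0.14 and -0.62 in lean pools 1 to 3. The groups were apart by 0.29 at their nearest values, and the difference was 1.02 (SE 0.23), or 2.02-fold. The other Slfn4 probe set, 1371163_at, did not show it. That probe set read 0.04, -0.02 and 0.02 in overfed pools, against -0.07, 0.08 and -0.10 in lean pools, with overlapping groups and a difference of 0.04 (SE 0.08). The whole range of the second probe set over 6 pools was 0.18, against 1.66 in the first. Schlafen genes lie side by side in the genome and resemble each other, and cross-hybridization between them was not tested.

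Isg15 was higher in every overfed pool. It read 0.31, 0.15 and 0.47 in overfed pools 1 to 3, against -0.51, -0.15 and -0.54 in lean pools 1 to 3. The groups were 0.30 apart at their nearest values, the widest such gap among the 13 probe sets, and the difference was 0.71 (SE 0.14), or 1.63-fold. Usp18, the protease that reverses Isg15 attachment, read 0.75, 0.06 and 0.51 in overfed pools, against -0.13, -0.08 and -0.06 in lean pools. Its lean pools spanned 0.07 and its overfed pools 0.70, so most of its spread was among overfed pools. The difference was 0.53 (SE 0.17), or 1.44-fold. For the rest of the Isg15 pathway, the activating enzyme Uba7 and the conjugating enzyme Ube2l6 differed by 0.09 (SE 0.15) and 0.23 (SE 0.10) and are given with their values already known. The other Uba7 probe sets were at 0.07 and 0.00054.

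The GTPase Mx1 read 0.19, 0.05 and 0.86 in overfed pools 1 to 3, against -0.60, -0.05 and -0.50 in lean pools 1 to 3. Overfed pool 3 lay far above the other overfed pools, and overfed pool 2 was 0.10 above lean pool 2. The difference was 0.75 (SE 0.24), or 1.68-fold. Mx2 gave opposite answers in its probe sets, which carry the same RefSeq transcript in the annotation. The representative, 1369202_at, read -0.22, -0.03 and -0.01 in overfed pools, against 0.01, 0.48 and 0.02 in lean pools. Its difference was -0.26 (SE 0.15), its groups did not overlap by a margin of 0.02, and its highest value was in lean pool 2. Without lean pool 2 the difference was -0.10. The second Mx2 probe set, 1387283_at, read 0.18, 0.11 and 0.09 in overfed pools, against -0.28, -0.09 and -0.37 in lean pools. It differed by 0.37 (SE 0.10), or 1.29-fold, without overlap, in the direction of Mx1. Averaged, the probe sets of Mx2 differed by 0.06, so no direction is given for this gene.

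**Figure D2:**
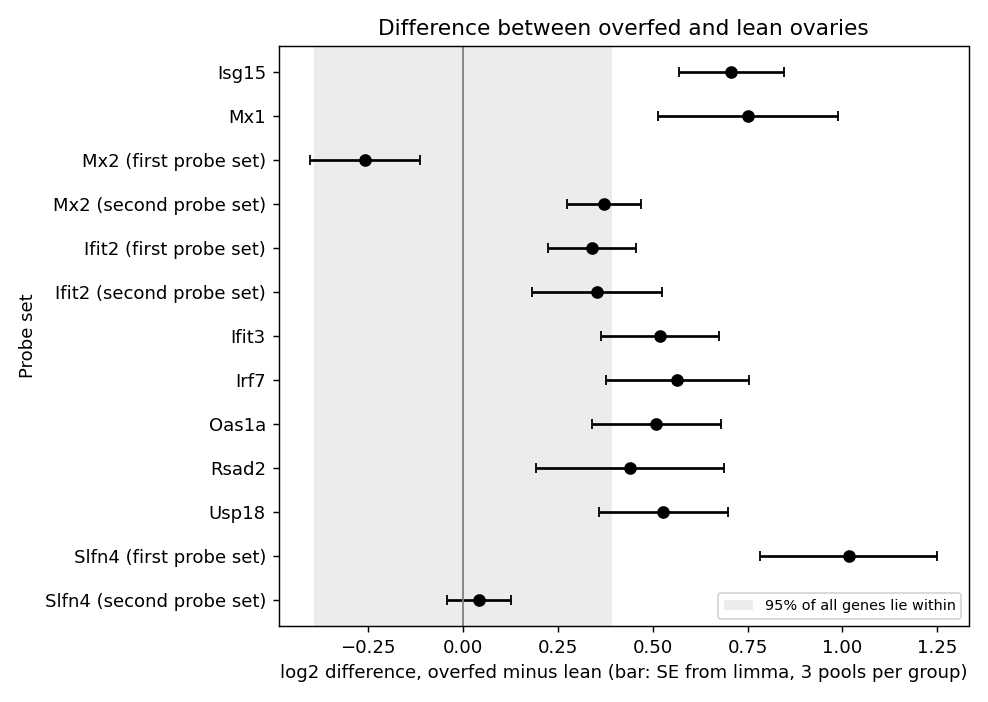
Log2 difference of overfed minus lean for each probe set, with limma's SE as bars (3 pools per group). The grey band holds 95% of all 14217 genes, which differed by at most 0.39 in either direction. Probe sets of Ifit2 sit together at 0.34 and 0.35, whereas those of Mx2 lie on both sides of 0 and those of Slfn4 at 1.02 and 0.04.

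Ifit2 was read alike by its probe sets. The first, 1379568_at, read 0.14, 0.06 and 0.39 in overfed pools 1 to 3, against -0.06, -0.10 and -0.28 in lean pools 1 to 3. The second, 1384180_at, read 0.19, -0.06 and 0.56 in overfed pools, against -0.14, 0.06 and -0.29 in lean pools. The probe sets were within 0.17 of each other in every pool and differed between groups by 0.34 (SE 0.12) and 0.35 (SE 0.17), but only in the first were the groups apart. Ifit3, the next gene on the chromosome, read 0.07, 0.12 and 0.55 in overfed pools, against -0.35, -0.07 and -0.39 in lean pools. Its difference was 0.52 (SE 0.16), or 1.43-fold, without overlap. Ifit1, of the same cluster and not among the 10 genes, read -0.16, 0.62 and 0.16 in overfed pools, against -0.20, -0.24 and 0.44 in lean pools. Lean pool 3 held its second highest value, the groups overlapped, and its difference was 0.21 (SE 0.25).

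**Figure D3:**
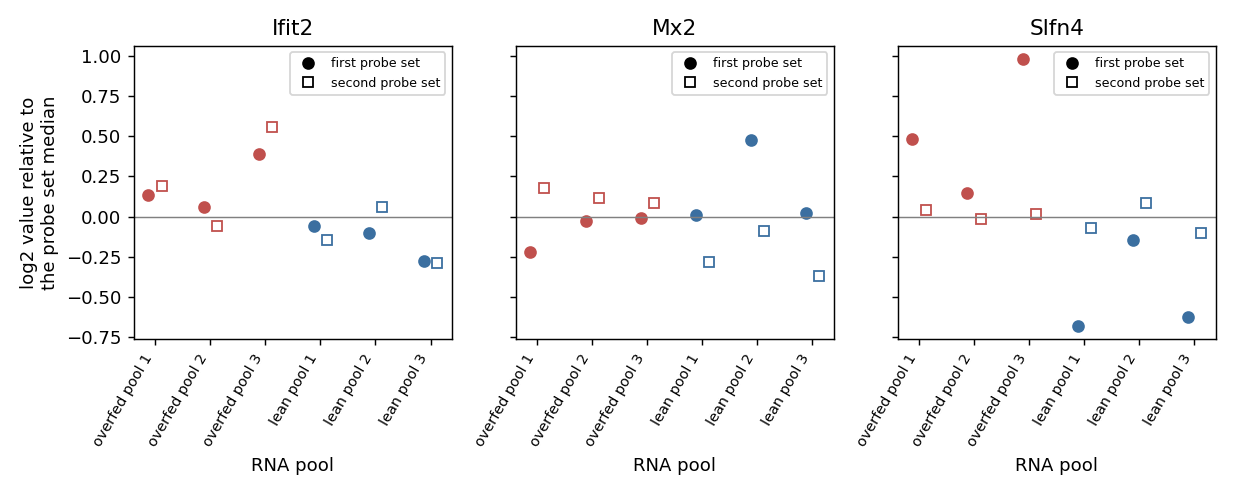
Both probe sets of Ifit2, Mx2 and Slfn4 in each pool, in log2 units relative to the probe set's median (red, overfed pools; blue, lean pools; filled circles, first probe set; open squares, second). The pair for Ifit2 lies within 0.17 in each pool, the pair for Mx2 differs by up to 0.56 and the pair for Slfn4 by up to 0.96.

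The transcription factor Irf7 read 0.47, 0.01 and 0.74 in overfed pools 1 to 3, against -0.33, -0.01 and -0.14 in lean pools 1 to 3. The groups were apart by only 0.02, between overfed pool 2 and lean pool 2. The difference was 0.57 (SE 0.19), or 1.48-fold. The oligoadenylate synthetase Oas1a read 0.03, 0.19 and 0.47 in overfed pools, against -0.58, -0.03 and -0.22 in lean pools. It differed by 0.51 (SE 0.17), or 1.42-fold, without overlap. Of its relatives, Oasl differed by 0.40 (SE 0.13) and Oas1b by 0.04 (SE 0.07), and a probe set shared by Oas1g and Oas1i by 0.08 (SE 0.12). The Oas1 genes are near copies, so the share of each in these signals is uncertain.

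Rsad2 followed a different pool order from most of the other genes, and shared its order of overfed pools with Usp18. It read 0.76, -0.09 and 0.12 in overfed pools 1 to 3, against -0.08, -0.54 and 0.08 in lean pools 1 to 3. Its groups overlapped, since overfed pool 2 lay below lean pools 1 and 3. The difference of 0.44 (SE 0.25) rested on overfed pool 1 and lean pool 2, being 0.19 with overfed pool 1 left out and 0.26 with lean pool 2 left out. Cmpk2, the gene next to Rsad2 and known as its interferon-induced partner, differed by -0.03 (SE 0.09) and, in its other probe set, by -0.22.

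The pools ranked alike within a group for most of these genes. Overfed pool 3 was the highest overfed pool in 8 of 10 genes, against 36.6% of all genes, and overfed pool 2 was the lowest in 7 of 10, against 30.3%. Lean pool 2 was the highest lean pool in 7 of 10 genes, against 36.0% of all genes. As a result overfed pool 2 and lean pool 2 lay only 0.14 apart in the mean of the 10 genes. By probe set, overfed pool 3 was highest in 9 of 13, overfed pool 2 lowest in 9 and lean pool 2 highest in 10. In the second Mx2 probe set overfed pool 3 was the lowest overfed pool. The genes were picked on values of these same pools, so nothing is read from these counts. Among the representative probe sets, the exceptions to the overfed order at the top were Rsad2 and Usp18, both highest in overfed pool 1. Deviations from the group means, which leave out the difference between groups, were compared between each gene and the mean of the other members over 6 pools. The Pearson correlation was 0.98 for Slfn4, 0.96 for Irf7, 0.92 for Mx1 and 0.89 for Isg15, as a description of pools that share an array for all genes. It was 0.79 for Ifit3, 0.65 for Ifit2, 0.61 for Oas1a and 0.49 for Usp18. For Mx2 it was 0.40, and for Rsad2 it was -0.29.

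Genes around the members, in the RefSeq gene order of assembly GRCr8, went both ways. Of 12 measured direct neighbours that are no members, 1 was higher and 11 were lower in overfed ovaries, between -0.14 and 0.19, with a median of -0.06. Of the 24 other measured genes with 1 or 2 genes between them and a member, 15 were higher and 9 lower, between -0.68 and 0.39, with a median of 0.05. Among all genes 47.8% were lower. Agrn and Perm1, on either side of Isg15, differed by -0.14 (SE 0.11) and -0.07 (SE 0.15). Fam3b, which lies between Mx1 and Mx2, differed by -0.12 (SE 0.52). In the Schlafen cluster Slfn2 differed by 0.34 (SE 0.19), with 0.66 in overfed pool 1, while Slfn5 differed by 0.14 (SE 0.13) and Slfn9 by -0.0045 (SE 0.22).

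The core letters of the response element stand before the listed start of several of these genes. RefSeq's promoter table for build GRCr8 held 6 of the 10, namely Irf7, Ifit3, Rsad2, Slfn4, Mx1 and Oas1a. The 250 bases before each start were searched on both strands for the core of the element, GAAANNGAAA or TTTCNNTTTC, counting overlapping matches. It was found in 4 of the 6, in 18 of 39 windows of other interferon-stimulated genes, and in 2.66% of 11700 windows of genes on the array. Oas1a held 2 overlapping matches on its own strand, Ifit3, Irf7 and Rsad2 one each on the opposite strand, and in Mx1 and Slfn4 these letters are not in the window. The matched stretches are shown so that the repeat can be compared between genes, with capitals marking the 10 matched letters, merged where they overlap in Oas1a.
Ifit3, GRCr8 chr1:241527272-241527301, plus strand: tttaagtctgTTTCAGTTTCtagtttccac
Irf7, GRCr8 chr1:205800073-205800102, minus strand: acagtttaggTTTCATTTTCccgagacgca
Oas1a, GRCr8 chr12:41330418-41330447, plus strand: ctctcggGAAATGGAAACTGAAAatcttgt
Rsad2, GRCr8 chr6:48788248-48788277, minus strand: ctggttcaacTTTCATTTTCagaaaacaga
Irf7 and Rsad2 carry the same 10 letters. The match starts 69 bases before the start in Irf7, 44 in Ifit3 and 147 in Rsad2, and at 41 and 35 bases in Oas1a. These distances are from the start that the promoter table lists. The windows of Irf7, Oas1a, Rsad2, Mx1 and Slfn4 overlap the annotated gene at least in part. A match is a description and not a binding site. Slfn4, with the largest difference, had no match in its window, and Rsad2, whose groups overlapped, had one. Among the other interferon-stimulated genes with a match were Cxcl10, at 0.97, and Lgals3bp, at -0.40.

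Only for Ifit3 does the whole searched window lie outside the annotated gene, and it is shown to place the match among the other bases before the start. It spans GRCr8 chr1:241527076-241527325 on the plus strand, with the matched letters in capitals.
Ifit3 upstream window: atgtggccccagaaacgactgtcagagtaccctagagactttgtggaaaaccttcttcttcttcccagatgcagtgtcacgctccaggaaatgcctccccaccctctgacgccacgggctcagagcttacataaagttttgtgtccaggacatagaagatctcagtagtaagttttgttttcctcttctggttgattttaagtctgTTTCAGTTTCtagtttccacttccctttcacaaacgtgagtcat

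The interferon genes themselves showed little difference. Of 13 listed, 3 were measured under an unambiguous name. Ifnb1, the main interferon of non-immune cells, lay between -0.0014 and 0.01 in overfed pools, and between -0.03 and 0.0014 in lean pools. Its difference was 0.02 (SE 0.07). Ifnk and the type II interferon Ifng differed by 0.0028 (SE 0.08) and -0.0047 (SE 0.08). Values this flat do not tell an unchanged signal from one at background, since levels are unknown.

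Sensors of nucleic acids and their adaptors were listed next, and 7 of 11 were higher with a median of 0.07. Of these, 2 had an unadjusted p under 0.05, both higher, and 0 passed limma's adjusted threshold. Over all genes 7.15% had an unadjusted p under 0.05, 2.67% higher in overfed pools. The DNA and RNA sensor Zbp1 was at 0.35 (SE 0.14, adjusted p = 0.719), the RNA helicase Rig1 (RIG-I) at 0.31 (SE 0.12, adjusted p = 0.727) and the endosomal receptor Tlr7 at 0.22 (SE 0.13, adjusted p = 0.829). In Zbp1 and Rig1 overfed pool 2 lay below lean pool 2, unlike in 9 of the 10 effector genes, at -0.02 and -0.01 against 0.02 and 0.01. Their groups overlapped for that reason.

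Of 15 receptor, JAK-STAT and inhibitor genes, 11 were higher with a median of 0.09. At an unadjusted p under 0.05, 2 were higher, against 2.67% of all genes, and 0 lower, against 4.47%. In limma 0 passed the adjusted threshold. Ifnar1, the receptor's first chain, was at 0.29 (SE 0.11, adjusted p = 0.719) in the probe set that represents it. Its 5 other probe sets ran from -0.13 to 0.13, so its direction depends on the probe set. Ifnar2 was at 0.03 (SE 0.09). Stat2 was at 0.27 (SE 0.11, adjusted p = 0.748), with 0.09 in its other probe set. Irf9, the DNA-binding partner of Stat2, was at 0.16 (SE 0.08, adjusted p = 0.818) and at 0.34 in its other probe set, and its groups did not overlap. The phosphatase Ptpn2, which restrains JAK kinases, was at 0.25 (SE 0.11, adjusted p = 0.751), with 0.11 in its other probe set.

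Interferon regulatory factors other than Irf7 did not go one way. With their binding proteins, 3 of 7 were higher and 4 lower, with a median of -0.03. At an unadjusted p under 0.05, 1 was higher, against 2.67% of all genes. This was the corepressor Irf2bp2 at 0.28 (SE 0.10, adjusted p = 0.715), and its other probe set was at -0.26. Irf2, which competes with activating factors, was at -0.19 (SE 0.13, adjusted p = 0.847), and Irf8, a factor of myeloid cells, at -0.13 (SE 0.09, adjusted p = 0.853). The other Irf2 probe sets were at -0.24 and -0.03.

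Among 45 other interferon-stimulated genes, 35 were higher and 10 lower, and the median was 0.14. The groups did not overlap in 12 that were higher, against 6.76% of all genes, and in 1 that was lower, against 6.34%. At an unadjusted p under 0.05, 6 were higher, against 2.67% of all genes, and 2 lower, against 4.47%. In limma 0 passed the adjusted threshold. The interferon-induced chemokine Cxcl10 was at 0.97 (SE 0.19, adjusted p = 0.623), with 0.23, 0.77 and 0.25 in overfed pools against -0.71, -0.23 and -0.74 in lean pools. Its peak was thus in overfed pool 2, where most effector genes had their lowest overfed value. Cxcl11, of the same chemokine group, was at 0.45 (SE 0.14, adjusted p = 0.671), and Oasl at 0.40 (SE 0.13, adjusted p = 0.676). The 2 lower genes were the membrane protein Ifitm1 at -0.48 (SE 0.18, adjusted p = 0.716) and the secreted glycoprotein Lgals3bp at -0.40 (SE 0.17, adjusted p = 0.748). Ifitm3, which blocks entry of enveloped viruses, was at -0.31 (SE 0.13, adjusted p = 0.751). Ifitm1 read 0.04, -0.15 and -0.46 in overfed pools, against 0.43, -0.04 and 0.47 in lean pools, lowest in overfed pool 3 and highest in lean pool 3, and its groups overlapped. Ifitm1, Ifitm3 and Lgals3bp were named after their values were seen.

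**Figure D4:**
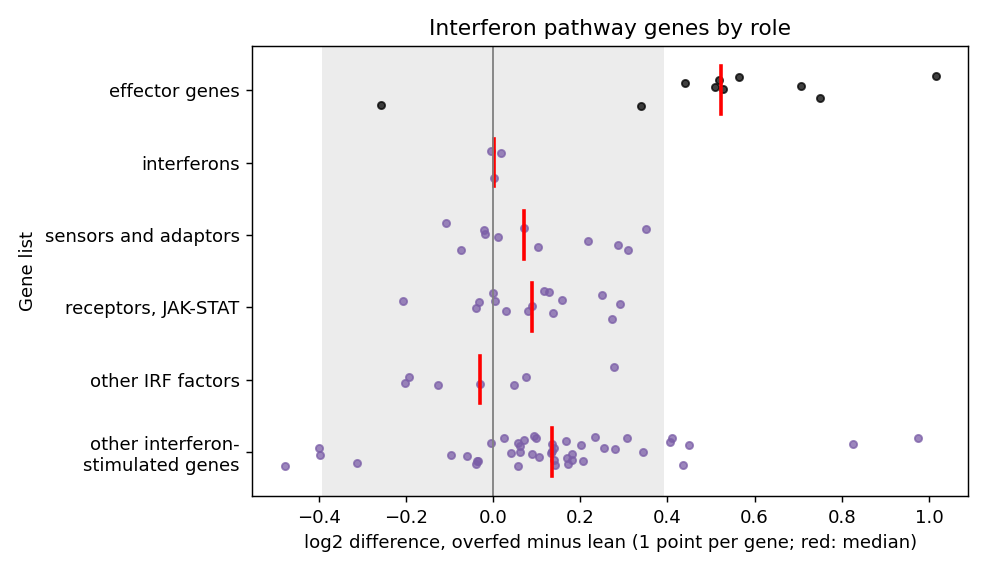
Log2 difference of overfed minus lean for 1 representative probe set of each gene, by role in the interferon pathway (points, genes; red lines, medians; grey band, 95% of all genes). The median is 0.52 for the effector genes, which were picked on this comparison, 0.14 for 45 other interferon-stimulated genes and 0.0028 for 3 interferons.

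Together the 5 lists held 80 different genes, 57 higher and 23 lower, with a median of 0.09. The groups did not overlap in 19 higher genes, or 23.8%, against 6.76% of all genes, and in 2 lower ones, against 6.34% of all genes. At an unadjusted p under 0.05, 11 were higher, against 2.67% of all genes, a count that was 2 without lean pool 1, 2 without lean pool 3, 5 without overfed pool 3 and 7 with the pool number as a block. No gene of these lists passed limma's adjusted threshold in any of these fits.

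Among all other genes that varied over the pools at least as much as the mean of the 10, the 5 nearest in pattern were Cyp17a1, Herc6, Ms4a6a, Meox1 and Hba-a3. Likeness was the Pearson correlation with the mean of the 10 genes over 6 pools, among 1372 candidates, of which 3 reached 0.9. Cyp17a1, the androgen-making enzyme of theca cells, had 0.95, Herc6, an interferon-induced ligase, 0.94, and Ms4a6a, a membrane protein of macrophages, 0.94. The homeobox gene Meox1 had 0.88 and the haemoglobin chain Hba-a3 0.87. With so few pools, correlations of this size include the difference between groups. Cyp17a1 read 0.54, -0.09 and 0.77 in overfed pools, against -0.68, 0.09 and -0.27 in lean pools. It shared the high overfed pools 1 and 3 with Irf7. In the pools numbered 2 Cyp17a1 was lower in the overfed pool, whereas Irf7 was at 0.01 in the overfed and -0.01 in the lean pool.

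Markers of several cell types differed between pools alongside these genes. Of 13 oviduct and ciliated epithelium markers, 13 were lower in overfed pools, 10 of them at an unadjusted p under 0.05, against 4.47% of all genes. Their mean was -0.65, -0.25 and -0.80 in overfed pools 1 to 3, against 0.47, -0.02 and 0.76 in lean pools 1 to 3. In this mean the overfed pools ran in the reverse order of the effector genes' mean, and lean pool 2 stood nearest to 0 in both. Single markers did not share that overfed order, which arose from averaging. Rsph1 read -2.02, -0.27 and -0.96 in overfed pools 1 to 3, and Epcam read 0.54, -0.46 and -1.18. Macrophage markers were higher in 13 of 14, with means of 0.04 to 0.18 in overfed pools and -0.12 to -0.07 in lean pools, and 5 were higher at an unadjusted p under 0.05, against 2.67% of all genes. Neutrophil markers were higher in 6 of 7, with means of 0.03 to 0.40 in overfed pools and -0.34 to -0.01 in lean pools, highest in overfed pool 2. The extremes of these means came from S100a8 and S100a9, at 1.59 and 1.34 in overfed pool 2 and -1.20 and -1.16 in lean pool 2. The other neutrophil markers differed by -0.07 to 0.20. T and NK cell markers were higher in 9 of 12, with means of 0.02 to 0.08 in overfed pools and -0.21 to 0.10 in lean pools. Plasmacytoid dendritic cell markers, of the cells that make most type I interferon in blood, were higher in 1 of 5, with means of -0.12 to 0.04 in overfed pools and -0.02 to 0.08 in lean pools. Ovarian markers, of granulosa, theca and luteal cells and oocytes, were higher in 10 of 18, with means of -0.16, -0.03 and 0.22 in overfed pools 1 to 3, against -0.26, 0.09 and -0.16 in lean pools 1 to 3. Like the effector genes, they were highest in overfed pool 3 among overfed pools and in lean pool 2 among lean pools. The part of these cell types in the differences was not tested, and which of their markers are absent cannot be read from centred values.

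**Figure D5:**
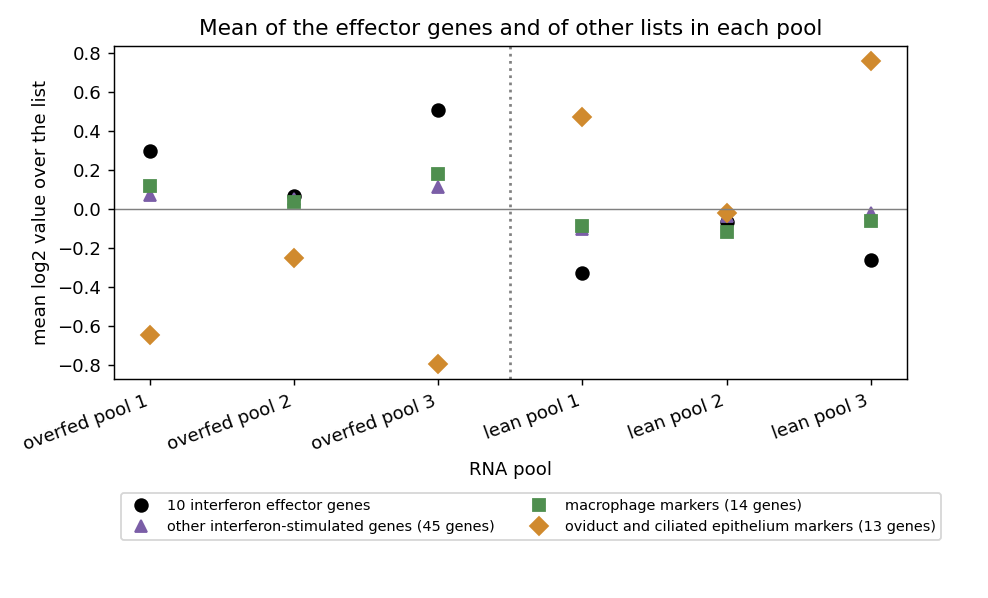
Mean log2 value of the 10 effector genes, 45 other interferon-stimulated genes, 14 macrophage markers and 13 oviduct and ciliated epithelium markers in each pool (overfed left of the dotted line). The effector genes lie between 0.07 and 0.51 in overfed pools and between -0.33 and -0.07 in lean pools, while the oviduct markers lie on the other side of 0 in every pool but lean pool 2, where both are below 0.

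Array controls also differed between the groups. The mean of 9 hybridization controls was -0.04, -0.05 and -0.25 in overfed pools 1 to 3, against 0.04, 0.06 and 0.50 in lean pools 1 to 3. It was lowest in overfed pool 3, where most effector genes were highest, and highest in lean pool 3, where beta-actin's 3' signal exceeded its 5' signal by 0.36. The spread over all probe sets was largest in overfed pool 1, with an SD of 0.29. Without lean pool 3 and overfed pool 1 the mean of the 10 genes differed by 0.49. Without overfed pool 3 it differed by 0.40, and with any other pool left out by 0.46 to 0.62.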

How the data were processed

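Ovary RNA of 3 overfed and 3 lean pools was hybridized to 6 Affymetrix arrays. Per the submitters' processing notes the arrays were processed in GCOS. How probe sets were summarised and normalized, and the logarithm's base, is not stated in what was used here. The values as deposited by the authors are logarithms, read as log2, which were centred before deposit so that each probe set's median over the pools was 0 within 1e-06. If they are natural logarithms, the printed folds are too small.

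The platform annotation gave 20826 of 31042 probe sets 1 gene, 436 several and 9780 none, after 57 control probe sets were left out. Symbols were updated through a RefSeq table. A gene with several probe sets is represented by the one with a RefSeq mRNA accession, then a unique one, then the lowest identifier.

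The difference of overfed minus lean was fitted with limma 3.58.1 in R 4.3.3 (lmFit, eBayes, no covariate). Its p-values are two-sided, and were adjusted by Benjamini-Hochberg across the whole array. A planned variance trend was not used, as centred values hold no levels. On simulated data for this comparison (31042 probe sets), the fit called 36 of 50 at a true fold of 2 and 8 of 50 at a true fold of 1.5. The 9 false calls were of the whole run, which also held 50 changed probe sets each at folds of 4 and 8. Its noise was normal and independent between probe sets, so these counts do not give the power on the real arrays. Members and gene lists were chosen with earlier results of these data known. Named genes were the 10 members, the 3 genes of lowest p in each wider list with the key receptor and factor genes, and the 5 nearest in pattern. Relatives, neighbours and partners of the members, and Ifitm1, Ifitm3 and Lgals3bp, were named outside this rule, with their values known. Neighbouring genes came from the RefSeq table's order. The number of pools limits the precision.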

Additional observations from a re-analysis of the deposited data

How the results depend on the processing

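Over 13 alternative settings (quantile normalization, array median centring, array weights, a robust prior, the pool number as a block, each pool left out in turn, lean pool 3 and overfed pool 1 left out together, and averaging a gene's probe sets), 128 of 130 differences of single members kept their sign and moved by less than the SD between pools. In this balanced design the pool block and the robust prior cannot change a difference, nor can averaging for a gene with 1 probe set. Those values are the same by construction and count among the 128, so they are no check. Leaving 1 of a group's 3 pools out cannot move a difference by as much as the SD between pools. In those settings only the sign could have failed. Array median centring shifts all members by the same small amount. The count of 128 is therefore no measure of robustness. The exceptions came from averaging a gene's probe sets, where Mx2 turned to 0.0567 and Slfn4 was at 0.53. By construction that setting tests fewer features, and its count at an unadjusted p under 0.05 was 1021, against 2070. The mean of the members stayed between 0.40 and 0.62, and 9 or 10 members were higher. No setting gave a probe set or gene at an adjusted p under 0.05 in limma. Among the wider interferon lists 54 to 59 of 80 genes were higher, and the count of those higher at an unadjusted p under 0.05 was 11, with 2 to 13 when 1 pool was left out, 3 without lean pool 3 and overfed pool 1, and 7 with the replicate block. The pool numbers were not taken as pairs, as same-numbered pools' deviations correlated by 0.10, 0.17 and -0.28. For differently numbered pools the correlations ran from -0.42 (overfed pool 1 with lean pool 2) to 0.40 (overfed pool 3 with lean pool 2). Deviations within a group sum to 0, which ties these correlations to each other. With the block 1757 probe sets had an unadjusted p under 0.05.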
